A study of Homo sapiens with 10 samples.

Results

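Poly(A)-selected RNA-seq of 2 untreated human endothelial cell lines was examined for 10 genes by which endothelial cells are commonly recognised: VWF, TEK, TIE1, ANGPT2, EGFL7, CLEC14A, CD93, EMCN, PLVAP and ESAM. The 10 genes were chosen by name, through their Ensembl identifiers in GENCODE 44, from the 60448 genes of the count table. No expression value was a criterion, but earlier results of these data were known when the genes were chosen. EA.hy926 is a hybrid line made by fusing umbilical vein endothelial cells with the lung adenocarcinoma line A549. The HMEC-1 line derives from endothelial cells of dermal microvessels and was immortalised with the SV40 large T antigen. Each line was represented by 5 libraries of WT cells without treatment, released with trypsin before RNA extraction. EA.hy926 cells were grown in Advanced DMEM, whereas HMEC-1 cells were grown in MCDB 131 with more serum, epidermal growth factor and hydrocortisone, so that line and medium cannot be told apart. Each line is a single established line, and a difference between them is not a difference between umbilical vein and dermal endothelium. The total count was 34846046 to 39899324 in the EA.hy926 libraries and 33391640 to 43877224 in the HMEC-1 libraries.

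Endothelial cells line blood vessels, and the 10 genes cover several of the systems that mark them. VWF encodes von Willebrand factor, the platelet-binding multimer that endothelial cells store in Weibel-Palade bodies, and ANGPT2 encodes angiopoietin-2, which is kept in the same granules. Angiopoietin-2 is a context-dependent ligand of the receptor tyrosine kinase TEK (TIE2), angiopoietin-1 is its main activating ligand, and TIE1 is a co-receptor with no strong ligand of its own. CLEC14A and CD93 are group XIV C-type lectin-like receptors that bind the matrix protein multimerin-2. EGFL7 is a secreted matrix protein, and an intron of its gene carries the microRNA miR-126. EMCN encodes endomucin, a sialomucin of venous and capillary endothelium, PLVAP forms the diaphragms of fenestrae and caveolae, and ESAM is an immunoglobulin-like adhesion molecule of tight junctions.

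The region before the transcription start is shown for 5 of the 6 genes with an upstream sequence available here. They include the gene almost without reads in EA.hy926 (EMCN), a receptor nearly alike in both lines (TIE1) and a gene clearly higher in EA.hy926 (CLEC14A). ESAM, which had the largest upward difference, was not among the 6. The sequences are the 250 bases upstream of the RefSeq start on GRCh38.p14, written 5′ to 3′ on the strand of the gene. Capitals mark matches on either strand to GGAA, the core recognised by ETS factors, to AGGAAG, which contains that core, and to the GATA-type words AGATAA and TGATAA. For EGFL7, the second of the RefSeq starts is shown.
EMCN, chr4:100518023-100518272, minus strand: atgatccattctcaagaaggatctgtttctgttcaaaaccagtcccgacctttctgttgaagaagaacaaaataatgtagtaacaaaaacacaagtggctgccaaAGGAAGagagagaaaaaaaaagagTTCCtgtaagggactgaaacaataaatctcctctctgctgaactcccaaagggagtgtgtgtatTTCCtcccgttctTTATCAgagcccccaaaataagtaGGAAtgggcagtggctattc
CLEC14A, chr14:38256094-38256343, minus strand: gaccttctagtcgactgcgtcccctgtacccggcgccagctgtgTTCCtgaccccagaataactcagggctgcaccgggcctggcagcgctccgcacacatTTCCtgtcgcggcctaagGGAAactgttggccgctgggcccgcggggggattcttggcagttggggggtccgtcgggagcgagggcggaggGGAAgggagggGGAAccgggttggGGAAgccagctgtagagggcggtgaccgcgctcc
EGFL7, chr9:136662666-136662915, plus strand: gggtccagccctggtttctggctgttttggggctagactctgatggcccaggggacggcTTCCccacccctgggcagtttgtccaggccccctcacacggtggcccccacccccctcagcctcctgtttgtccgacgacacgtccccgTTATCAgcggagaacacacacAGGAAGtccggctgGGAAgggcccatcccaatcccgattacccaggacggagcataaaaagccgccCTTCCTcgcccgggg
PLVAP, chr19:17377343-17377592, minus strand: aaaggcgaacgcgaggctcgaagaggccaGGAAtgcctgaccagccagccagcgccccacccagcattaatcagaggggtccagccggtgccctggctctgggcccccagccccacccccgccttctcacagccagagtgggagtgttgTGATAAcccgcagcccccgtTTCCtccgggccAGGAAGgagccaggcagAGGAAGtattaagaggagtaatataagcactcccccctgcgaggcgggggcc
TIE1, chr1:43300732-43300981, plus strand: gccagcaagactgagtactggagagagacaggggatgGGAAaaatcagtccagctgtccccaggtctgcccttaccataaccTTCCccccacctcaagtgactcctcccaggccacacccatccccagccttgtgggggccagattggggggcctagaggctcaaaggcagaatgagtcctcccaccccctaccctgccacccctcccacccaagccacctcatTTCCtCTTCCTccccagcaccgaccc

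RefSeq upstream sequences were used for 6 of the 10 genes with 8 starts, and VWF, ANGPT2, CD93 and ESAM were not searched. The GGAA core was found in each of the 8 windows, 1 to 6 times, but it was also found in 92.7% of the 35116 windows of all genes, with a median of 3 matches. AGGAAG was present in EMCN, PLVAP, TIE1 and both EGFL7 windows and absent from CLEC14A and both TEK windows, against 28.7% of all windows. TGATAA was present in EMCN, PLVAP and the EGFL7 window shown, against 6.66% of all windows, and AGATAA in 1 TEK window, against 9.17%. EMCN and PLVAP, the genes with lower counts in EA.hy926, and EGFL7, a gene with higher counts, therefore carried the same words. These matches describe the letters of the window and were not tested for binding. The window of CLEC14A also overlaps exons of a lncRNA on the opposite strand.

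The mature sequences of the microRNA in EGFL7 are shown because its host gene rose in EA.hy926 and its locus has a row of its own in the count table. Capitals mark the seed, bases 2 to 8.
hsa-miR-126-5p, chr9:136670616-136670636, plus strand: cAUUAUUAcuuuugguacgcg
hsa-miR-126-3p, chr9:136670653-136670674, plus strand: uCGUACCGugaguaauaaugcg
The 2 arms have different seeds, and 0 other human mature miRNAs of the RefSeq table share either of them.

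All 10 genes passed the filter on low counts, and 5 of them were upregulated and 1 downregulated in EA.hy926 compared to HMEC-1 at an adjusted P value under 0.05 and an absolute log2FC over 1. Over the 16310 genes tested, 19.1% were upregulated and 16.4% downregulated by the same rule, 35.5% in all. The upregulated genes were ESAM, CLEC14A, ANGPT2, EGFL7 and VWF, and the downregulated gene was EMCN. TEK, TIE1 and CD93 were higher and PLVAP lower in EA.hy926 with log2FC values within the fold threshold. All 10 genes had an adjusted P value under 0.05, as did 85.8% of all genes tested, and all 10 had libraries of the 2 lines that did not overlap, as did 77.4%. The median log2FC of the 10 genes was 1.02, and that of all genes tested was -0.01. Values below are CPM, the counts of a gene per 1000000 counts of the TMM-scaled library, log2FC values are given with their SE, and adjusted P values are from the edgeR quasi-likelihood test with Benjamini-Hochberg adjustment over all genes tested. In these bulk libraries, fewer cells with a transcript and less of it per cell cannot be told apart, and the P values measure the spread between replicates of 1 line each, which the study describes as independent.

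**Figure D1:**
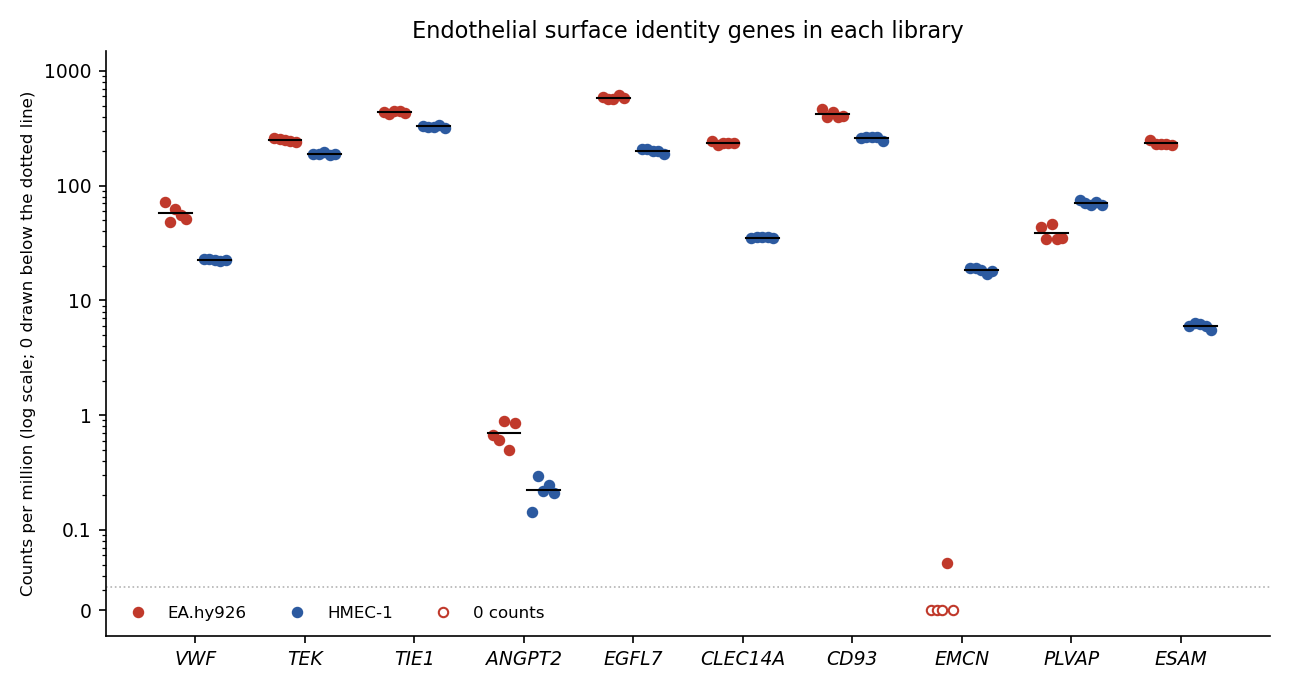
CPM of the 10 genes (log scale) in each of the 5 EA.hy926 and 5 HMEC-1 libraries, with bars at the line means (none for EMCN in EA.hy926) and open circles for libraries with 0 counts. ESAM at 227 to 250 against 5.57 to 6.40 CPM and EMCN at 0 to 0.052 against 17.1 to 19.3 CPM stand furthest apart, in opposite directions.

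VWF, the Weibel-Palade body cargo, was expressed in both lines and was higher in EA.hy926. Its CPM values were 71.6, 48.6, 62.5, 55.5 and 51.3 in the EA.hy926 libraries, and 23.0, 22.8, 22.7, 21.9 and 22.5 in the HMEC-1 libraries. The lowest EA.hy926 library stood above the highest HMEC-1 library, but the EA.hy926 libraries spread much more, with a coefficient of variation of 16.1% against 1.93%. The log2FC was 1.36 ± 0.08 (SE, n = 5 libraries per line), a 2.56-fold difference with an edgeR adjusted P value of 3.16e-13, and it stayed between 1.28 and 1.42 when each library was left out. The gene lies at chr12:5948877-6124770 on the minus strand of GRCh38. Its partial pseudogene copy VWFP1 had 0 to 4 counts in every library.

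ANGPT2 was near the limit of detection in both lines. It had 25, 20, 31, 19 and 32 counts in the EA.hy926 libraries and 5, 12, 10, 10 and 8 counts in the HMEC-1 libraries. The lowest EA.hy926 library had 19 counts and the highest HMEC-1 library 12, so the libraries of the lines did not overlap. The log2FC was 1.64 ± 0.26 (SE), with an edgeR adjusted P value of 5.54e-06, and its SE was the widest among the 9 genes with measurable counts in both lines. The opposite-strand gene MCPH1 shares 658 exonic bases (9.69% of the ANGPT2 exons) with ANGPT2, and MCPH1 itself was higher in EA.hy926, with a log2FC of 0.78 and means of 43.8 and 25.6 CPM. Whether the counting used strand was not given in the sources used here, and the part of MCPH1 reads in the ANGPT2 difference was not tested.

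Of the other 30 genes examined for the Weibel-Palade body, 29 were tested, 4 were upregulated and 7 downregulated in EA.hy926, and their median log2FC was -0.43. SELP, the P-selectin gene whose product is stored beside von Willebrand factor, had 2832 to 3879 counts in EA.hy926 compared to 0 to 1 in HMEC-1, at least 1203-fold higher in EA.hy926 against a floor of 3 counts per library. STXBP2, which encodes a Munc18 protein of granule exocytosis, went the other way, with 0 to 2 counts in EA.hy926 compared to 346 to 444 in HMEC-1, at least 118-fold lower in EA.hy926. TNFRSF11B (osteoprotegerin) was listed with 0 counts in all EA.hy926 libraries and with 14 to 36 counts in the HMEC-1 libraries. The storage cargo therefore did not move as 1 block: VWF, ANGPT2 and SELP were higher in EA.hy926, while TNFRSF11B fell at least 5.96-fold. Elsewhere in the list, PLAT, CXCL8 and IGFBP7 were lower in EA.hy926 (log2FC of -1.70, -1.24 and -0.48), and EDN1 was higher (1.00). The ratio of VWF to ANGPT2 per kilobase within a library averaged 53.5 in EA.hy926 and 64.6 in HMEC-1, a log2 difference of -0.27 with a 95% interval of -0.84 to 0.30. That difference did not pass the two-sided exact permutation test (P = 0.310, adjusted P = 0.464 over 3 ratios tested), and the interval leaves room for a moderate difference in either direction.

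The TIE receptors differed least between the lines. TEK was at 259, 254, 252, 245 and 241 CPM in EA.hy926 and at 190, 191, 197, 186 and 187 CPM in HMEC-1. The log2FC of TEK was 0.40 ± 0.03 (SE; edgeR adjusted P value of 4.70e-12). TIE1 was at 443, 424, 448, 444 and 429 CPM in EA.hy926 and at 330, 327, 328, 336 and 321 CPM in HMEC-1. The log2FC of TIE1 was 0.41 ± 0.02 (SE; edgeR adjusted P value of 5.60e-13). For both receptors every EA.hy926 library was above every HMEC-1 library, by amounts within the fold threshold. Within a library, TIE1 was 1.25 times as high as TEK per kilobase of all annotated exons in EA.hy926 and 1.24 times in HMEC-1. The size of these ratios depends on the length used. All TIE1 exons cover 6705 bases but its longest transcript 3893, against 4804 and 4683 for TEK, so the longest transcripts would give higher ratios in both lines. The comparison of the lines does not depend on the length. The log2 difference between these ratios was 0.02, with a 95% interval of -0.06 to 0.08 (two-sided exact permutation test, P = 0.603 and adjusted P = 0.603), so any difference in receptor balance larger than those bounds lies outside the interval.

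The ligands of TEK, unlike the receptors, differed strongly. ANGPT1, the activating ligand, had 537 to 620 counts in EA.hy926 compared to 2 to 7 in HMEC-1, with means of 15.8 ± 1.22 and 0.0999 ± 0.0512 CPM (SD, n = 5) and a log2FC of 7.26 ± 0.15 (SE; edgeR adjusted P value of 4.13e-21). ANGPT4 had 16 to 23 counts in EA.hy926 compared to 1 to 4 in HMEC-1 (log2FC of 3.25 ± 0.33, SE). The ratio of ANGPT2 to ANGPT1 per kilobase was 0.0431, 0.0376, 0.0615, 0.0374 and 0.0596 in the EA.hy926 libraries. In the HMEC-1 libraries it was 1.65, 3.75, 2.00, 4.41 and 1.19, from 2 to 7 ANGPT1 counts. ANGPT1 thus exceeded ANGPT2 in all 5 EA.hy926 libraries and fell below it in all 5 HMEC-1 libraries, but with so few counts the HMEC-1 ratio is imprecise and was not tested. ANGPT2 itself was higher in EA.hy926, so the lower ratio there came with the larger rise of ANGPT1.

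PTPRB, the phosphatase VE-PTP that restrains TEK signalling, was higher in EA.hy926 with a log2FC of 0.81 ± 0.04 (SE), within the fold threshold, at 171 ± 11.4 and 97.7 ± 0.528 CPM. SVEP1, a matrix protein that binds TIE1, had 7 to 16 counts in EA.hy926 compared to 2 to 6 in HMEC-1 and failed the filter. Over the 20 pathway genes, 16 were tested, 3 were upregulated (ANGPT1, ANGPT4 and GRB14) and 0 downregulated by the edgeR rule, with a median log2FC of -0.0004. At an adjusted P value under 0.05 alone, 7 pathway genes were higher and 7 lower (7 lower at an unadjusted P value under 0.05 as well), and DESeq2 and limma-voom also called 0 downregulated. GRB14, an adaptor that binds activated TEK, had a log2FC of 1.24 ± 0.05 (SE), while the effector PIK3R1 was lower in EA.hy926 at a log2FC of -0.87.

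**Figure D2:**
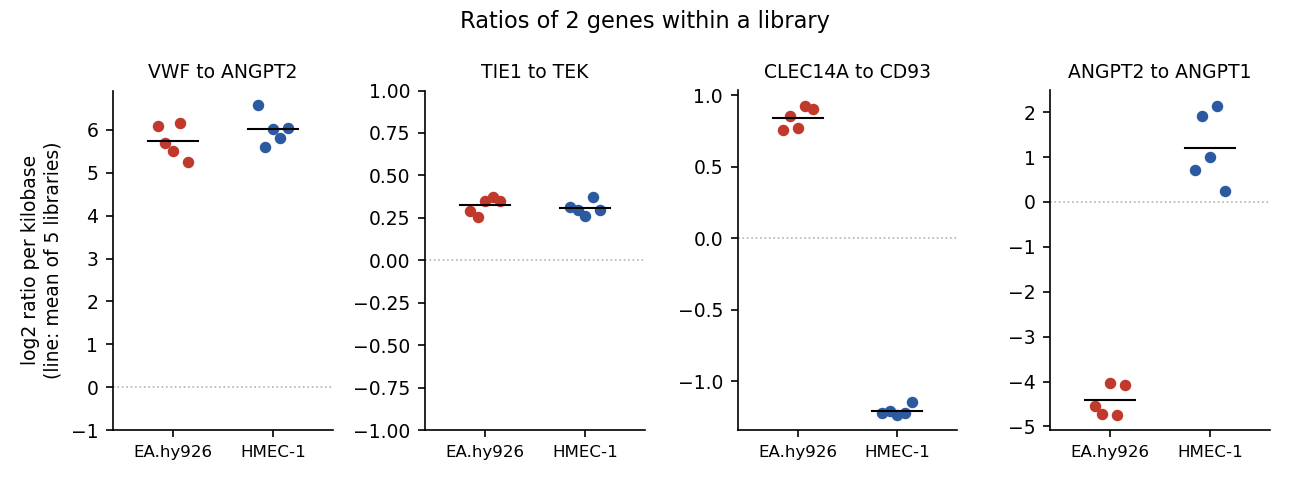
Log2 ratio of 2 genes per kilobase within each library, with 0.5 count added to both genes, in EA.hy926 (red) and HMEC-1 (blue), bars at the mean of 5 libraries. The TIE1 to TEK ratio overlapped between the lines (1.25 and 1.24), while CLEC14A to CD93 was 1.80 in EA.hy926 and 0.433 in HMEC-1.

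The lectin receptors differed unequally. CLEC14A was at 246, 224, 237, 235 and 236 CPM in EA.hy926 and at 35.2, 35.7, 35.5, 35.5 and 34.9 CPM in HMEC-1. The lines were far apart and both were tight, with coefficients of variation of 3.29% and 0.930%. The log2FC of CLEC14A was 2.74 ± 0.03 (SE), a 6.66-fold difference with an edgeR adjusted P value of 1.04e-25. CD93 was at 464, 395, 442, 395 and 402 CPM in EA.hy926 and at 263, 264, 267, 264 and 247 CPM in HMEC-1, with a log2FC of 0.68 ± 0.04 (SE) and an adjusted P value of 5.42e-13. The 2 receptors changed places: CLEC14A per kilobase was 1.80 times CD93 in EA.hy926 and 0.433 times CD93 in HMEC-1. The ratio ran from 1.69 to 1.90 over the EA.hy926 libraries and from 0.425 to 0.451 over the HMEC-1 libraries. The log2 difference was 2.05, with a 95% interval of 1.96 to 2.14 (two-sided exact permutation test, P = 0.00794, the smallest that 5 against 5 libraries can give, adjusted P = 0.0238).

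Their shared partner multimerin-2 (MMRN2) moved the same way, at 779 ± 30.4 CPM in EA.hy926 compared to 202 ± 3.86 CPM in HMEC-1, with a log2FC of 1.95 ± 0.03 (SE). THBD (thrombomodulin), which belongs to the same lectin family and lies 29688 bases from CD93, had a log2FC of 1.03 ± 0.03 (SE), just past the fold threshold that CD93 did not pass. Of the 7 genes of this family and its partners, 6 were tested, 3 were upregulated (MMRN1, MMRN2 and THBD) and 1 downregulated (NID1), with a median log2FC of 0.45. The number upregulated fell to 2 with library totals in place of TMM, when the fold threshold itself was tested, and without HMEC-1 replicate 5. MMRN1, the related multimerin of platelets and endothelium, had 5276 to 7266 counts in EA.hy926 compared to 19 to 35 in HMEC-1. The basement membrane gene NID1 had 2699 to 3374 counts in EA.hy926 compared to 24921 to 32788 in HMEC-1.

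EGFL7 had the highest level per kilobase of the 10 genes in both lines. It was at 597, 575, 568, 612 and 579 CPM in EA.hy926 and at 210, 207, 203, 199 and 190 CPM in HMEC-1. The groups did not overlap, and the log2FC was 1.54 ± 0.03 (SE), a 2.90-fold difference with an edgeR adjusted P value of 1.94e-21. The MIR126 row, which counts poly(A)-library reads over the 85-base hairpin and not the mature miRNAs shown above, had 38 to 64 counts in EA.hy926 compared to 9 to 18 in HMEC-1. Its log2FC of 1.83 ± 0.24 (SE; adjusted P value of 5.45e-07) went the same way as that of its host, and reads of unspliced EGFL7 RNA over this intron cannot be told apart from those of the hairpin transcript. Over the 10 libraries, the genes outside the 10 whose log2 CPM per kilobase was most like that of EGFL7 were RPL10, a ribosomal protein gene (root mean square difference 0.08), CDH5, the VE-cadherin gene (0.12), and ECE1, which encodes endothelin-converting enzyme (0.21).

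EMCN was almost without reads in EA.hy926 and differed more between the lines than any other of the 10 genes. It had 0 counts in 4 EA.hy926 libraries and 2 counts in replicate 4, against 678, 781, 844, 696 and 691 counts in HMEC-1. In HMEC-1 these counts correspond to 19.3, 19.1, 18.3, 17.1 and 18.1 CPM. Every HMEC-1 library was thus far above the EA.hy926 libraries, and EA.hy926 held at least 221-fold less against a floor of 3 counts per library, with an edgeR adjusted P value of 1.02e-21. A count of 0 in these libraries limits EMCN but does not show that the gene is silent. Of the EMCN exons annotated at chr4:100395341-100880126, 4.35% are shared with an opposite-strand lncRNA not analysed here.

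PLVAP was the other gene with fewer counts in EA.hy926. It was at 44.0, 34.5, 46.0, 34.1 and 35.3 CPM in EA.hy926 and at 75.1, 70.5, 68.3, 72.4 and 68.5 CPM in HMEC-1. The highest EA.hy926 library, at 46.0 CPM, was below the lowest HMEC-1 library, at 68.3 CPM. The log2FC was -0.87 ± 0.07 (SE; edgeR adjusted P value of 4.90e-11), within the fold threshold. Scaling by library totals in place of TMM moved the median log2FC of all genes tested from -0.01 to -0.15 and that of PLVAP to -1.01, past the threshold. Relative to the median gene, PLVAP was therefore about as far below under both scalings.

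Among 10 other sialomucin, caveolar and VEGF-response genes, all tested, 2 were upregulated (NRP1 and CAV1) and 0 downregulated by the edgeR rule, with a median log2FC of 0.17. At an adjusted P value under 0.05 alone, 6 were higher and 2 lower (2 lower at an unadjusted P value under 0.05 as well), and DESeq2 and limma-voom also called 0 downregulated. CAV1, the caveolin gene, was at 2321 ± 60.3 and 1079 ± 24.1 CPM, with a log2FC of 1.10 ± 0.02 (SE), opposite in sign to PLVAP, whose product forms the caveolar diaphragm. NRP1, a VEGF co-receptor, had a log2FC of 1.22 ± 0.03 (SE). The sialomucin PODXL, at 695 ± 13.5 and 703 ± 20.1 CPM, did not pass the test (adjusted P value of 0.522), and CD34 was lower in EA.hy926 at a log2FC of -0.75, so neither differed to the extent of EMCN.

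ESAM had the largest upward difference of the 10 genes. It was at 250, 232, 233, 230 and 227 CPM in EA.hy926 and at 5.99, 6.40, 6.22, 6.04 and 5.57 CPM in HMEC-1. All EA.hy926 libraries were far above all HMEC-1 libraries, which still held 210 to 287 ESAM counts each. The log2FC was 5.28 ± 0.04 (SE), a 38.7-fold difference with an edgeR adjusted P value of 8.63e-28, and it stayed between 5.23 and 5.29 when each library was left out. The gene lies at chr11:124752583-124762290 on the minus strand. The antisense gene ESAM-AS1 overlaps its locus without shared exonic bases and was also higher in EA.hy926, at 2.81 and 0.237 CPM. The next genes on either side were close to equal in the 2 lines: VSIG2, 328 bases away, had a log2FC of -0.09 (adjusted P value of 0.624) and MSANTD2, 4208 bases away, had a log2FC of -0.03 (adjusted P value of 0.668). NRGN, 5373 bases away, had a log2FC of 0.11. Further off, SIAE, 56876 bases away, was higher in EA.hy926, with a log2FC of 2.64 and means of 63.1 and 10.1 CPM. Near others of the 10 genes, neighbours were flat in some cases and not in others. AGPAT2, 465 bases from EGFL7, had a log2FC of 1.32, while GTPBP3, 8719 bases from PLVAP, had a log2FC of 0.28. These neighbours were chosen after their values were seen.

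Of 10 other endothelial junction genes, 9 were tested, 5 were upregulated (ICAM2, JAM3, PECAM1, CDH5 and TJP1) and 1 downregulated (CLDN5), with a median log2FC of 1.21. ICAM2, an endothelial adhesion molecule, rose from 11.1 ± 0.536 CPM in HMEC-1 to 129 ± 4.86 CPM in EA.hy926, a log2FC of 3.54 ± 0.04 (SE). JAM3, a junctional adhesion molecule, had a log2FC of 3.13 ± 0.04 (SE). CLDN5, the tight junction claudin of endothelium, had 0 to 5 counts in EA.hy926 compared to 51 to 65 in HMEC-1, a log2FC of -4.27 ± 0.33 (SE). The tight junction genes ESAM and CLDN5 thus differed in opposite directions.

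**Figure D3:**
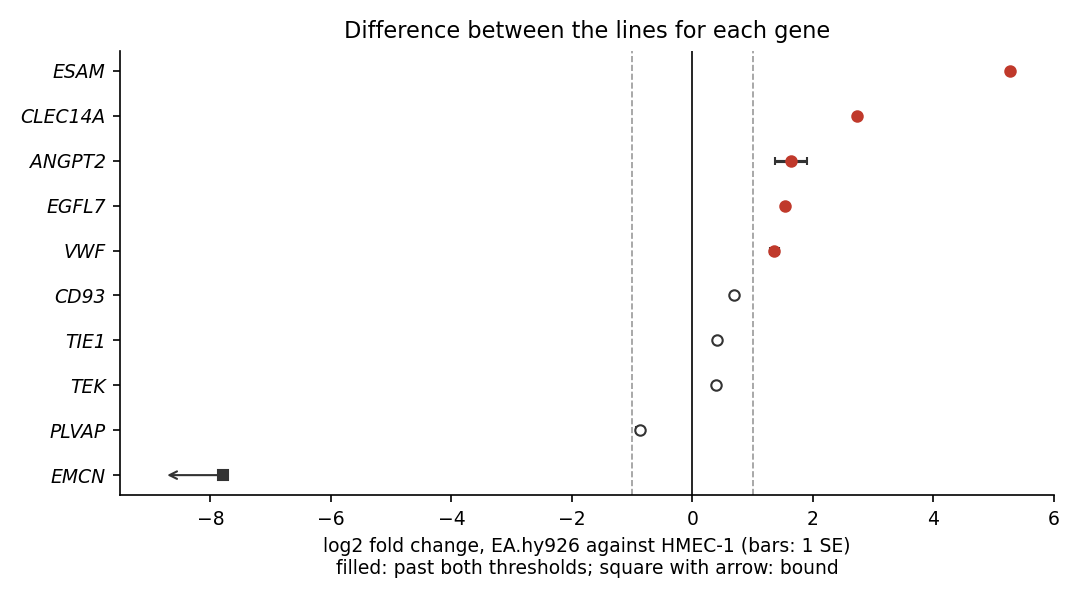
Log2FC of EA.hy926 against HMEC-1 for each of the 10 genes, with bars of 1 SE, filled points past both thresholds and dashed lines at the fold threshold. ESAM (5.28) and CLEC14A (2.74) lead the upregulated genes, and the EMCN square with an arrow marks a bound, at least 221-fold lower.

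The order of levels differed between the lines. Per kilobase of annotated exon, the EA.hy926 order was EGFL7 (229 ± 7.00 CPM per kilobase), CLEC14A (113 ± 3.70), ESAM (80.3 ± 3.06), TIE1 (65.3 ± 1.55), CD93 (62.8 ± 4.75), TEK (52.1 ± 1.50), PLVAP (16.9 ± 2.50), VWF (5.58 ± 0.895), ANGPT2 (0.104 ± 0.025) and EMCN (0.00201, from 2 counts in all). TIE1 and CD93 overlapped over the libraries, and the other neighbours did not. In HMEC-1 the order was EGFL7 (78.7 ± 3.02), TIE1 (49.0 ± 0.794), TEK (39.6 ± 0.844), CD93 (39.1 ± 1.20), PLVAP (30.9 ± 1.25), CLEC14A (16.9 ± 0.157), EMCN (3.56 ± 0.175), VWF (2.18 ± 0.042), ESAM (2.07 ± 0.106) and ANGPT2 (0.0326 ± 0.0081). Here TEK overlapped CD93 and VWF overlapped ESAM. EGFL7 was thus first in both lines, ESAM moved from the third place in EA.hy926 to the ninth in HMEC-1, and CLEC14A moved from the second to the sixth. With the length of the longest annotated transcript in place of all exons, TIE1 rose to 112 in EA.hy926 and 84.4 in HMEC-1. In EA.hy926, TIE1 then overlapped CLEC14A (113) over the libraries and stood above ESAM (100.4). In HMEC-1, ESAM and VWF changed places under that length.

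**Figure D4:**
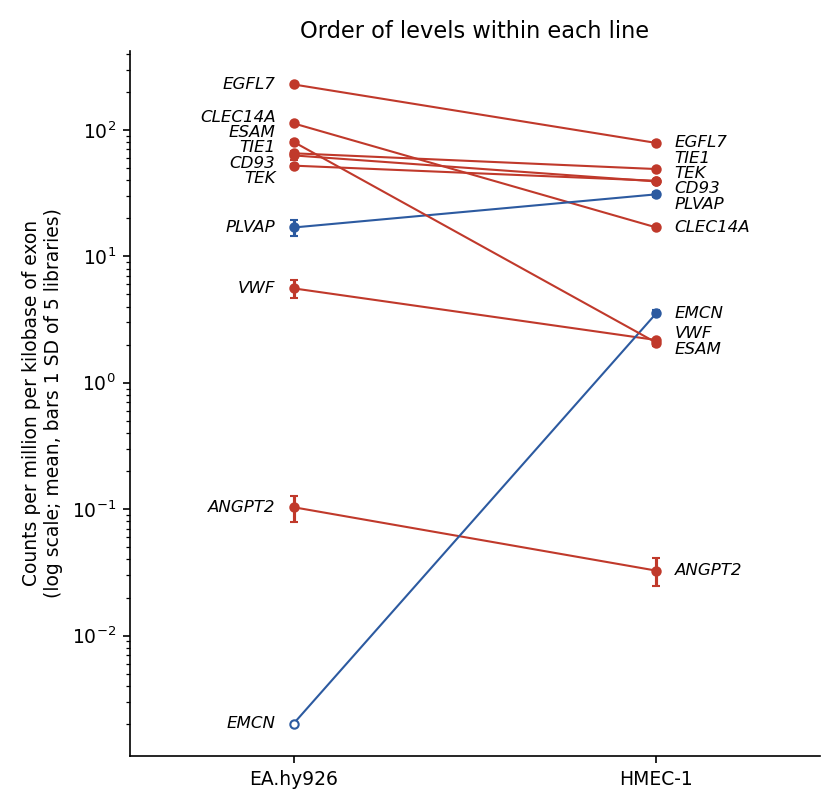
Mean CPM per kilobase of exon (log scale) of each gene in EA.hy926 and HMEC-1, with bars of 1 SD over 5 libraries, red for genes higher in EA.hy926 and blue for genes lower. The line of ESAM (80.3 to 2.07) crosses most of the others, and that of EMCN (0.00201 to 3.56, open circle for 2 counts in all) crosses those of ANGPT2, VWF and ESAM.

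Within EA.hy926 the genes differed in how much they varied between replicates. The coefficient of variation was 16.1% for VWF, 14.8% for PLVAP and 7.57% for CD93, but 2.38% to 3.81% for TIE1, TEK, EGFL7, CLEC14A and ESAM. In HMEC-1 the same 8 genes stayed between 0.930% and 5.11%. VWF, PLVAP and CD93 were each highest in replicates 1 and 3 of EA.hy926. EA.hy926 replicate 1 held the highest value for 5 of the 8 genes with 100 counts or more in every EA.hy926 library, and for 15 of 21 other endothelial surface genes at that depth (71.4%), compared with 26.4% of all 11170 tested genes at that depth. The values of replicate 1 for the 8 genes were a median of 0.08 above the line mean on the log2 scale, small beside the differences between the lines, and no call for the 10 genes was lost when it was left out.

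The endothelial setting of the 10 genes was uneven as well. Both lines expressed the defining endothelial genes CDH5, with 1268 ± 63.1 and 441 ± 5.39 CPM in EA.hy926 and HMEC-1, and ERG, with 224 ± 3.81 and 111 ± 2.59 CPM. PECAM1, FLT1 and ENG were also upregulated in EA.hy926 (log2FC of 2.68, 2.32 and 1.76), and ROBO4 was higher within the fold threshold (0.34). MCAM went the other way, at 95.2 ± 4.54 and 538 ± 6.39 CPM (log2FC of -2.50). KDR did not pass the test (log2FC of -0.04, edgeR adjusted P value of 0.611). Of 25 other endothelial surface genes, 23 were tested, 11 were upregulated and 5 downregulated in EA.hy926, with a median log2FC of 0.81. SELP, RAMP2 and FLT4 differed most: RAMP2 had 0 counts in EA.hy926 compared to 63 to 118 in HMEC-1, and FLT4 (VEGFR3) had 0 to 2 and 352 to 478. Of 21 endothelial transcription factors, all tested, 11 were upregulated and 4 downregulated, with a median log2FC of 1.01. TAL1, a basic helix-loop-helix factor of early endothelium and blood, had 0 to 1 counts in EA.hy926 compared to 1663 to 2318 in HMEC-1, at least 587-fold lower in EA.hy926. Its partner LMO2 went the other way, at 84.0 ± 7.03 and 4.30 ± 0.256 CPM and a log2FC of 4.29 ± 0.06 (SE). GATA6 had a log2FC of 4.24 ± 0.12 (SE), while GATA2, the GATA factor more usual in endothelium, was lower in EA.hy926 at a log2FC of -1.03 ± 0.03 (SE).

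Markers of other cell types also moved with the line, and their part in the differences above was not tested. Of 20 epithelial markers, 11 were tested, with 3 upregulated and 4 downregulated in EA.hy926 and a median log2FC of 0.43. Their summed level was 1354 to 1463 CPM in EA.hy926 compared to 455 to 517 CPM in HMEC-1. Most of it came from KRT7, KRT8 and KRT18, with means of 622, 546 and 161 CPM in EA.hy926 and 314, 19.2 and 108 CPM in HMEC-1. KRT7 and KRT18 were within the fold threshold (log2FC of 0.99 and 0.58). KRT8 had 17930 to 22163 counts in EA.hy926 compared to 629 to 871 in HMEC-1, whereas KRT19 and CLDN7 were lower in EA.hy926 (log2FC of -4.71 and -4.54). In EA.hy926, 6 of the markers were at 0 (CDH1, CLDN3, ESRP1, GRHL2, CDH3 and RAB25). These 6 were low in HMEC-1 as well, with at most 9 counts in any library. Of 15 mesenchymal and mural markers, 11 were tested, 2 were upregulated and 8 downregulated, and the median log2FC was -4.64, or -3.49 with the genes at or under 3 counts in a line set to their bound. Their summed level was 414 to 472 CPM in EA.hy926 compared to 539 to 566 CPM in HMEC-1. COL1A1 had 7 to 15 counts in EA.hy926 compared to 12634 to 16454 in HMEC-1, COL1A2 had 0 to 3 and 3831 to 5083, and NOTCH3 had 0 to 7 and 452 to 616, while RGS5 and ACTA2 went the other way, DCN and LUM were at 0 in both lines and PDGFRA at 0 in EA.hy926. The pericyte gene RGS5 had a mean of 430 ± 23.5 CPM in EA.hy926, most of the summed level of the list there, against 5.05 ± 0.221 CPM in HMEC-1 (log2FC of 6.41 ± 0.05, SE), and ACTA2 had a log2FC of 2.68 ± 0.12 (SE).

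Blood cell and lymphatic markers were also counted. Of 10 haematopoietic markers, 2 were tested and 1 (CD14) was downregulated, with a median log2FC of -2.23 and a summed level of 0.753 to 1.02 CPM in EA.hy926 compared to 1.50 to 2.09 CPM in HMEC-1. PTPRC had at most 6 counts in any library, and PF4 and GP9 had 0. Of 6 lymphatic endothelial markers, 5 were tested, with 3 upregulated, 2 downregulated and a median log2FC of 4.15. PROX1 had 332 to 454 counts in EA.hy926 compared to 0 to 3 in HMEC-1, whereas PDPN had 0 counts in EA.hy926 compared to 2935 to 3685 in HMEC-1. The lymphatic markers were thus divided between the lines, with a summed level of 12.3 to 17.1 CPM in EA.hy926 compared to 90.0 to 95.2 CPM in HMEC-1.

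**Figure D5:**
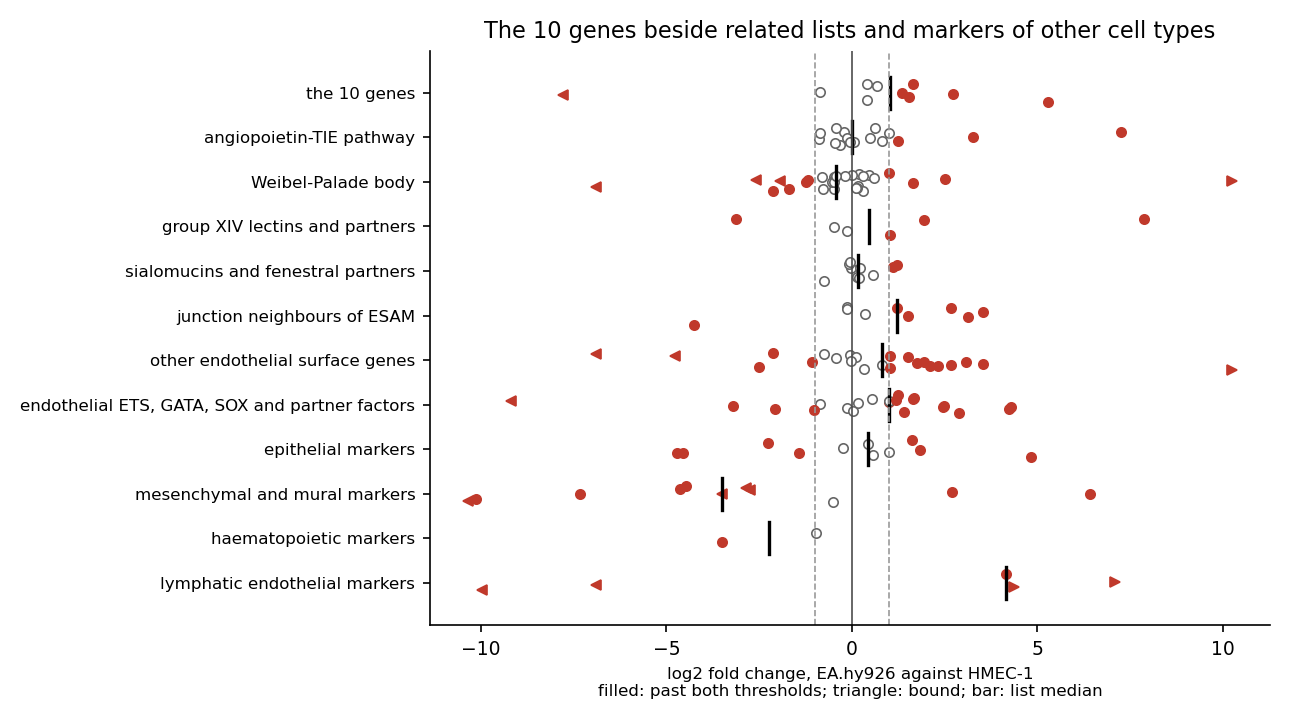
Log2FC of the tested genes of each list, filled where past both thresholds, with triangles for genes shown at a bound, black bars at list medians and a vertical line at the median of all genes tested (-0.01). The 10 genes (median 1.02) lie mostly to the right, as do the other junction genes (1.21), and the mesenchymal and mural markers lie mostly to the left (-3.49 with bounds).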

How the data were processed

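Raw read counts per gene were deposited by the authors as 1 table of 60448 genes and 10 libraries. Per the labels and the study's methods, poly(A) RNA was converted with random hexamers, reads were trimmed with fastp and aligned to GRCh38 with HISAT2. The submitters' processing notes name featureCounts and DESeq2, while the methods name HTSeq. The annotation release and the strand setting were not given in the sources used here. Every row names a gene, and 0 columns were left unused.

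The deposited counts were analysed as they are. Genes passing filterByExpr (minimum count 10, minimum total count 15) were tested in edgeR 4.0.16 (R 4.3.3) with TMM factors, glmQLFit and glmQLFTest, all 10 libraries and no covariate, with Benjamini-Hochberg adjustment over 16310 genes. A gene was called at an adjusted P value under 0.05 and an absolute log2FC over 1. Where no library of a line exceeded 3 counts, folds are bounds against 3 counts per library. Bounds cover counting error only. Levels between genes are CPM per kilobase of the exon union in GENCODE 44. Ratios (0.5 count added) were tested by exact permutation, and their 95% intervals invert that test. The fit was first checked on counts with known answers. Alternatives were DESeq2 1.42.0, limma 3.58.1 voom, other filters, scalings and thresholds, a replicate block and leaving out each library.

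The 10 genes and the lists were chosen with earlier results of these data known. All 10 genes are named, with the 3 genes of largest absolute log2FC past both thresholds in each other list that have 10 counts or more in every library of a line, the ligands and phosphatase of the TIE receptors, overlapping or copied genes, and the 3 genes most like EGFL7. The further genes given with values were chosen after their values were seen. Among them are GATA2, PIK3R1, PODXL, CD34, RGS5, ACTA2, MCAM, KDR and the genes flanking ESAM, EGFL7 and PLVAP.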

Additional observations from a re-analysis of the deposited data

Results flagged for a closer look

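In 8 of 90 groups of 5 libraries examined, for the 10 genes and the genes named beside them, the highest or lowest library lay far from the other 4 by Dixon's criterion, which chance alone meets in about 1 in 20 groups. For the 10 genes, these were CD93 in HMEC-1, where replicate 5 was low at 247 CPM, ESAM in EA.hy926, where replicate 1 was high at 250.0 CPM, and EMCN in EA.hy926, where replicate 4 held the only counts, at 0.0520 CPM. Among the other genes, CLDN5 in HMEC-1 had a low library at 1.11 CPM and CLDN7 in EA.hy926 a high library at 0.325 CPM. The remaining 3 rest on 1 or 2 counts in a single library with 0 in the others: SELP in HMEC-1 at 0.0285 CPM, FLT4 in EA.hy926 at 0.0569 CPM and TAL1 in EA.hy926 at 0.0260 CPM.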

How the results depend on the processing

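The 5 upregulated genes (ESAM, CLEC14A, ANGPT2, EGFL7 and VWF) and EMCN kept their direction and their call under every alternative in which they were tested, and no log2FC reversed. With a minimum of 10 counts in every library, EMCN and ANGPT2 were not tested, which left 0 of the 10 genes downregulated. The same filter removed genes at low counts in a line from the lists, which left 2 upregulated and 4 downregulated Weibel-Palade genes, 0 downregulated junction genes, 3 downregulated other endothelial surface genes, 1 downregulated epithelial and 2 downregulated mesenchymal and mural markers, 0 downregulated haematopoietic markers, and 0 upregulated and 0 downregulated lymphatic markers. With no filter on low counts, 1 angiopoietin-TIE gene, 2 group XIV genes and partners, 7 epithelial markers and 2 haematopoietic markers were downregulated and 2 haematopoietic markers were upregulated. With library totals in place of TMM, 2 of the 10 genes were downregulated (EMCN and PLVAP, the latter at a log2FC of -1.01), as were 1 angiopoietin-TIE gene and 2 haematopoietic markers, and 1 gene of the sialomucin and fenestral list was upregulated. That scaling moved the median log2FC of all genes tested from -0.01 to -0.15, and the called genes from 3110 upregulated and 2674 downregulated to 2809 and 3085. Leaving out each library in turn gave 1 to 3 downregulated haematopoietic markers. The 11 upregulated other endothelial surface genes fell to 9 with library totals, when the fold threshold itself was tested and without HMEC-1 replicate 5. The 4 upregulated Weibel-Palade genes fell to 3 with library totals and when the fold threshold itself was tested. They rose to 5 without EA.hy926 replicate 5 or without HMEC-1 replicate 2. Calls over all genes tested numbered 5784, and 9312 with no filter, 3255 with the minimum in every library and 5021 when the fold threshold itself was tested. The 3 tested ratios kept their side of the threshold throughout.

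The replicate numbers are shared by both lines, but nothing says that a number marks a shared batch, and the deviations of same-numbered libraries correlated at -0.02 to 0.04. A fit with the replicate number as a block called 5786 genes and changed no call of the 10 genes. Depth limits EMCN in EA.hy926, ANGPT2 in both lines and ANGPT1 in HMEC-1, where the values rest on a few counts.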
